A study of Mus musculus with 18 samples.

Results

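The 10 genes described here belong to the p53 pathway and to the brakes of the cell cycle, and they were taken by their gene names from a table of 52636 genes. They are the transcription factors Trp53 and Trp63, the p53 antagonist Mdm2, the CDK inhibitors Cdkn1a, Cdkn1b, Cdkn1c, Cdkn2a, Cdkn2b and Cdkn2c, and the cyclin Ccnd1. All 10 were present in the table, each as 1 row. RNA-Seq had been done on sorted mouse epidermal cells of 6 groups with 3 columns of raw read counts each. The groups crossed genotype with stage. The fl/fl mice carried floxed Zfp36 alleles on a C57BL/6 background. In their littermates a K14-Cre transgene, which is active in basal keratinocytes under the human keratin 14 promoter, deleted the gene in epidermal cells (ΔEP here, ΔK14 in the labels). Zfp36 encodes tristetraprolin (TTP), a protein that binds AU-rich elements in 3′ untranslated regions and promotes decay of the mRNA. Adult mice were either mock treated or given DMBA, a mutagen, followed by repeated TPA, a phorbol ester that drives papilloma growth. Cells came from mock skin, from nontumoral skin adjacent to papillomas (treated) and from the papillomas (tumor). Live EpCAM+ CD45- CD140a- CD31- cells had been sorted, although the labels name whole skin as the source and describe treated skin cells as tumoral too. Other cells of the skin kept Zfp36.

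In keratinocytes, p53 is stabilized by DNA damage and oncogenic signaling, and it switches on Cdkn1a, which halts the cycle, and Mdm2, which marks p53 itself for degradation. p63 maintains the proliferative basal layer. CDK inhibitors of the CIP/KIP family (Cdkn1a to Cdkn1c) bind cyclin and CDK complexes, whereas those of the INK4 family (Cdkn2a to Cdkn2c) bind CDK4 and CDK6 and so oppose D-type cyclins such as that encoded by Ccnd1. Ccnd1 is a well-known mediator of Ras-driven skin tumors. Cdkn2a also encodes the Arf protein, an inhibitor of Mdm2, from a second start, and both products fall in the same row of the table.

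Replicates 2 and 3 of mock ΔEP held identical counts in every gene and were used as 1 library, which left 17 libraries and n = 2 in that group. Total counts ran from 2808550 to 9617985. Zfp36 lay between 152 and 713 CPM (counts scaled to each library's TMM-adjusted size) in the 9 fl/fl libraries and between 10.03 and 38.4 CPM in the 8 ΔEP libraries, so no library went against its genotype label. Some libraries stood apart from the rest of their group on principal components. Replicate 1 of both mock groups had summed levels of 8 keratinocyte markers of 3742 CPM (fl/fl) and 3807 CPM (ΔEP), against 19478 to 23164 CPM in the other mock libraries. Treated libraries also spread, with sums of 8737, 14022 and 5541 CPM (fl/fl) and 4900, 8242 and 20984 CPM (ΔEP). Replicate 1 of the fl/fl tumors, the library of lowest depth, lay near the ΔEP tumors, and its keratinocyte marker sum was 31556 CPM against 9743 and 11297 CPM in the other fl/fl tumors and 24909 to 26233 CPM in the ΔEP tumors. Its sum of 8 hair follicle markers was 512 CPM, against 1225 and 1490 CPM in those fl/fl tumors and 364 to 567 CPM in ΔEP tumors. Keratinocyte markers were detected in every group, while 10 leukocyte markers summed to 4.59 to 21.9 CPM in any library. The 8 fibroblast markers summed to 404 to 1747 CPM in mock and treated skin and to 37.3 to 408 CPM in tumors. Sums of 6 endothelial markers stayed between 8.93 and 39.5 CPM, those of 6 melanocyte markers between 9.15 and 367 CPM, and those of 6 muscle markers between 0.50 and 5.47 CPM. The part of these differences in the results below was not tested, beyond the fits without the libraries concerned. In bulk RNA from a sorted population, a change in the share of cells that express a gene and a change in RNA per cell cannot be told apart.

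Because TTP acts through AU-rich elements, the members were first read for the heptamer TATTTAT in their longest annotated 3′ untranslated region. Trp63, Mdm2, Cdkn1c and Ccnd1 held 1 match each and Cdkn1b held 3, so 5 of 10 members had the motif. It occurred in 26.8% of 21660 protein-coding genes, a share not matched for the length of the region. The regions of Cdkn1b, Trp63 and Ccnd1 were the longest of the 10, at 3439, 3064 and 2676 bases. Mdm2 was the sole member with the longer nonamer TTATTTATT, found in 7.43% of genes. Cdkn2a lacked even the pentamer ATTTA, which 63.2% of genes and 9 of 10 members had. A match is a description of sequence and no sign of TTP binding. The sites of 4 members are printed with 11 bases on either side and the heptamer in capitals, in the direction of the transcript, with positions on GRCm38 from the GENCODE annotation and its transcript sequences:
Trp63, chr16:25890242-25890270, plus strand: caacaccctagTATTTATtagaaaaataa
Mdm2, chr10:117688915-117688943, minus strand: ggcattgatgtTATTTATttgcaaataaa
Cdkn1b, chr6:134924118-134924146, plus strand: tttagtgcctgTATTTATccatcattact
Cdkn1b, chr6:134924746-134924774, plus strand: cacatggttgcTATTTATttctacatgaa
Cdkn1b, chr6:134925266-134925294, plus strand: ttatactaactTATTTATgttaaaaagag
Ccnd1, chr7:144931310-144931338, minus strand: ctacagaagagTATTTATgggaaaggctg

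Mdm2 and Cdkn1a are shown next with their RefSeq promoter windows, which run from 250 bases before to 50 bases after a transcription start (GRCm38.p6), since both are classical p53 targets and changed together. RefSeq windows were found for 7 of the 10 members, and those of Trp63, Cdkn1c and Ccnd1 were not among them. Capitals mark matches, on either strand, to the p53 half-site consensus, to the E2F motif TTTNNCGC and to the Sp1 motif GGGCGG, which did not overlap one another in these windows. Cdkn1a had a second window, at a downstream start (chr17:29093519-29093818), which is not printed. That window held 0 p53 half-sites and 2 Sp1 motifs. The Mdm2 window lies at the 5′ end of the gene, and sequence outside the windows was not read for these motifs. A match describes the sequence alone, and binding of p53 was not tested. The p53 half-site occurred once in the windows of Trp53 and Mdm2 and 2 times at the upstream start of Cdkn1a, and at least once in 8.36% of 32851 mouse promoter windows:
Mdm2, chr10:117710709-117711008, minus strand: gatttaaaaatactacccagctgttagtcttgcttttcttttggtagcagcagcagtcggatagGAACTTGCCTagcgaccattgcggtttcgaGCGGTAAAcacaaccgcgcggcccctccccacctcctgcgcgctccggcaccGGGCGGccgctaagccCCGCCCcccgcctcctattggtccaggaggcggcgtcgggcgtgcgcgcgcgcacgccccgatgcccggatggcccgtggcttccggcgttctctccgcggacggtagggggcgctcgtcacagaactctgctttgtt
Cdkn1a, upstream start, chr17:29090729-29091028, plus strand: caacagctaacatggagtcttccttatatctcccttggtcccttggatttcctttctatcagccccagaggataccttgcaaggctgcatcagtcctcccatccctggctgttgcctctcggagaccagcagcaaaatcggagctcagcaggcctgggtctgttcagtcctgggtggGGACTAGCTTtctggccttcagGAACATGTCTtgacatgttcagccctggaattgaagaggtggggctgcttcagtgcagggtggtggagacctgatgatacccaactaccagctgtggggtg

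The E2F motif, present in 5.17% of all windows, was found once in Mdm2 and once in each of the Cdkn2a windows. A cAMP response element (TGACGTCA), present in 1.79% of windows, occurred in that of Cdkn2b. No member window held the AP-1 motif TGANTCA, which was in 7.81% of all windows. The Cdkn2a starts are printed because the count of this gene sums both products, with capitals marking the E2F and Sp1 motifs. The upstream start is that of Arf, and the downstream start that of p16Ink4a:
Cdkn2a, upstream start, chr4:89294570-89294869, minus strand: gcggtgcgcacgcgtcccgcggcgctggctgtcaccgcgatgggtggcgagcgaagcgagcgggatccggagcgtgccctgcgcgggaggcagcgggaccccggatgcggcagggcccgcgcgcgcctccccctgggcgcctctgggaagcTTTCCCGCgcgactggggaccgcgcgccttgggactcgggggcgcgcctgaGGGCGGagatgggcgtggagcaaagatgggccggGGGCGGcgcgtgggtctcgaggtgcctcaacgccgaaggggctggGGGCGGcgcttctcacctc
Cdkn2a, downstream start, chr4:89282143-89282442, minus strand: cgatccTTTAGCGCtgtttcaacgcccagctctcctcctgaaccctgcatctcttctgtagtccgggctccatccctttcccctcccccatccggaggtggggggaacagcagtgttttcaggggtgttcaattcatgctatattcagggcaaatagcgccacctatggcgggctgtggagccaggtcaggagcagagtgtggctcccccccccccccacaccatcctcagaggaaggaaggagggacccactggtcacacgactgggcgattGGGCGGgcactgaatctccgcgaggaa

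Levels of the members spanned a wide range. On a scale of CPM per kilobase of annotated exon, which allows comparison between genes, Trp63 was the most abundant of the 10 in mock and treated skin, with a mean of 114 ± 47.0 (SD, n = 3) in mock fl/fl cells and 75.5 ± 7.37 (n = 3) in treated fl/fl cells. It lay above the next gene in every library of those 4 groups. Cdkn1a, Cdkn1b, Ccnd1, Trp53 and Mdm2 followed in mock fl/fl cells, from 32.7 down to 15.7 CPM per kilobase, and the ranges of neighbors in that order overlapped. Cdkn2c, Cdkn2b and Cdkn1c were lower, at means of 5.52, 2.66 and 1.12 CPM per kilobase, and Cdkn2a came last at 0.0871. The order was different in tumors. Cdkn1a ranked first in both genotypes, with 77.7 ± 13.4 CPM per kilobase in fl/fl tumors and 102 ± 37.9 in ΔEP tumors (n = 3 each), although its range overlapped that of the next gene, Trp63 in fl/fl tumors and Mdm2 in ΔEP tumors. Cdkn2a moved from last to the sixth place, and Cdkn1c became the lowest.

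**Figure D1:**
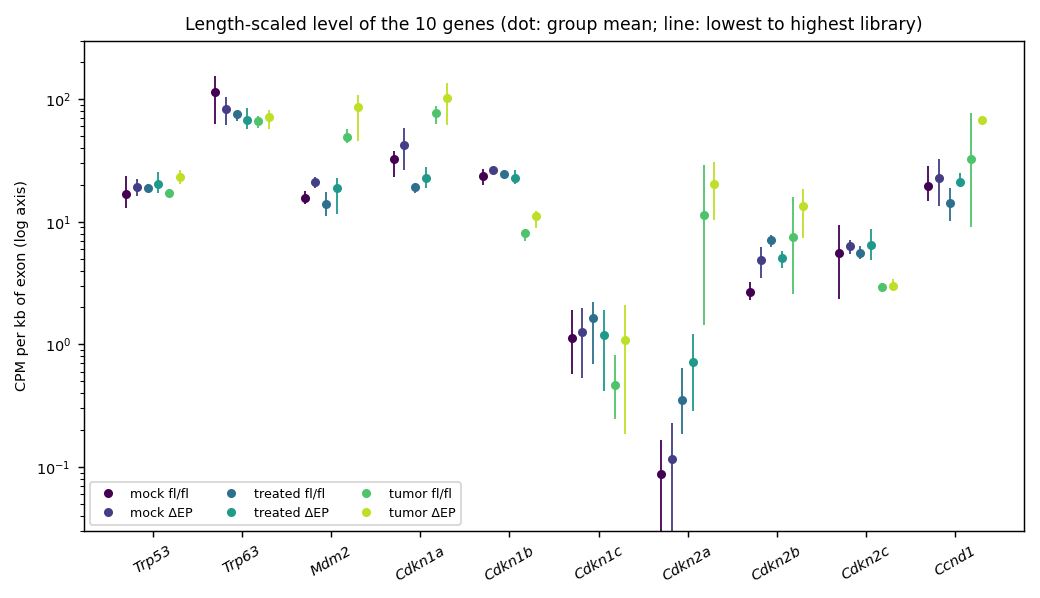
Level of each gene in CPM per kilobase of exon (log axis), with the group mean as a dot and the lowest and highest library joined by a line; lines reaching the lower edge include a library at 0. Trp63 lay on top in mock and treated cells, while Mdm2, Cdkn1a and Cdkn2a were higher and Cdkn1b and Cdkn2c lower in tumors than in treated skin.

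The first question was which members differed between papillomas and the treated skin beside them. A call in edgeR's quasi-likelihood test needed both a more than 2-fold change and an adjusted p below 0.05. By this rule 3 of 8 members tested changed in fl/fl mice, where 18% of 15362 genes were called, and 7 of 10 changed in ΔEP mice, where 26% of 15289 genes were called. Mdm2 and Cdkn1a rose and Cdkn1b fell in both genotypes. In ΔEP mice Cdkn2a, Cdkn2b and Ccnd1 also rose and Cdkn2c also fell. Trp53 and Trp63 were called in neither. None of the 10 members passed the test of whether the change differed between genotypes, in which 0.0118% of 17017 genes were called, and none had an unadjusted p under 0.05 there or was called by DESeq2, which called 1.21% of genes.

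**Figure D2:**
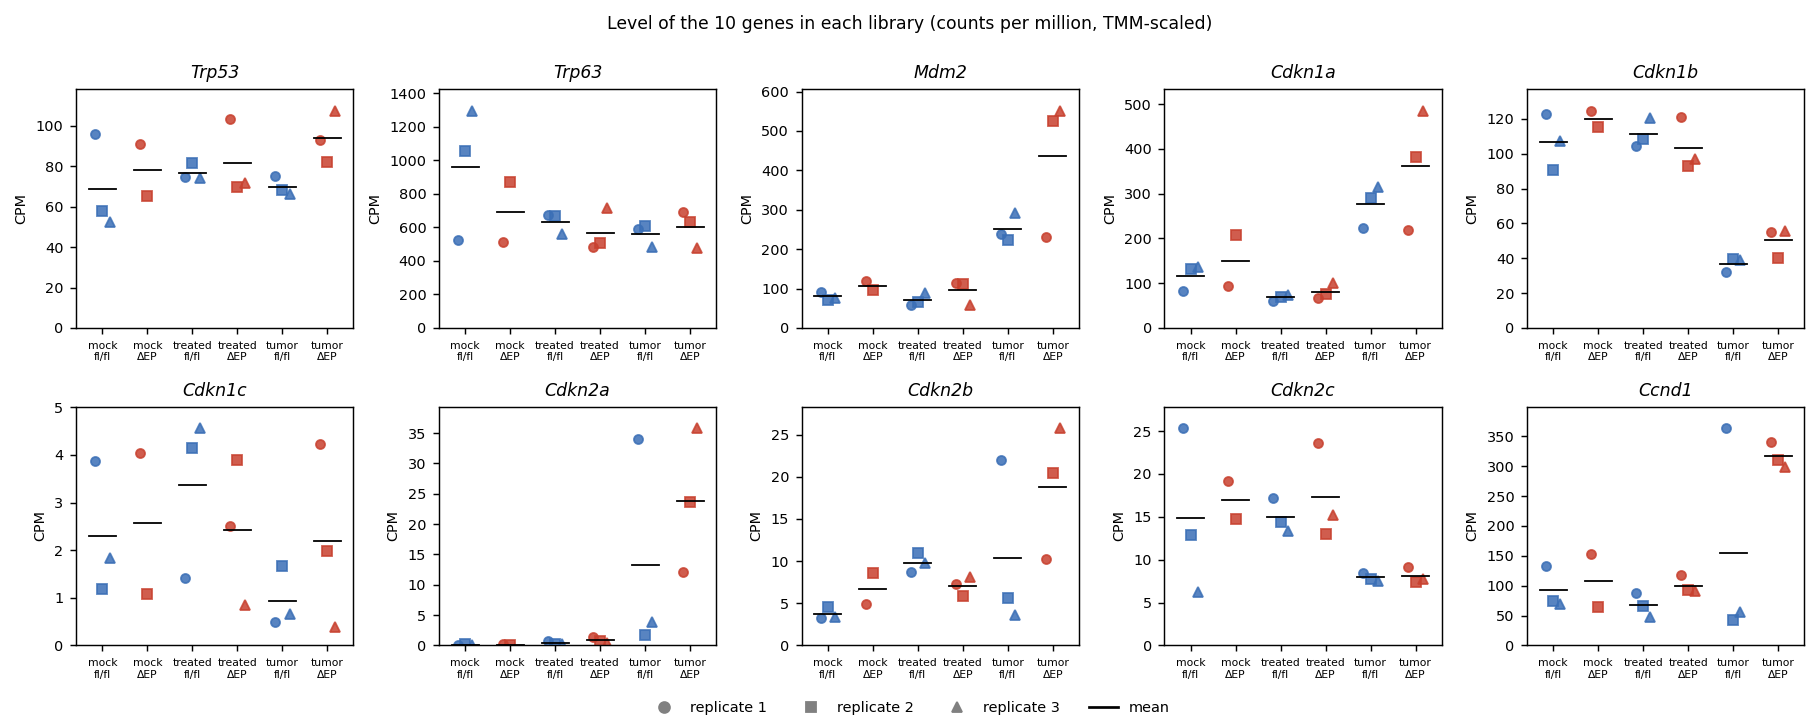
CPM of the 10 genes in each library, with 1 panel per gene, fl/fl in blue, ΔEP in red, replicates by symbol and group means as bars; every axis starts at 0. Mdm2 and Cdkn1a stood above all treated libraries in every tumor, Cdkn1b stood below them, and Trp53 and Trp63 overlapped.

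Trp53 (chr11:69580359-69591873, plus strand), which encodes p53 itself, did not differ beyond the spread between libraries. Its level was 74.6, 81.5 and 74.1 CPM in treated fl/fl libraries and 75.0, 68.2 and 66.3 CPM in fl/fl tumors. In ΔEP mice it was 104, 69.6 and 71.4 CPM in treated skin and 92.7, 82.0 and 107 CPM in tumors. The groups overlapped in both genotypes, and the fitted log2 fold changes were -0.16 ± 0.16 (SE; adjusted p = 0.462, edgeR) in fl/fl and 0.11 ± 0.21 (adjusted p = 0.702) in ΔEP mice.

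Trp63 (chr16:25683763-25892102, plus strand), the basal-layer factor, was not called between treated skin and tumors either. Treated libraries held 672, 666 and 562 CPM (fl/fl) and 481, 505 and 716 CPM (ΔEP). Tumors held 592, 608 and 485 CPM (fl/fl) and 689, 631 and 478 CPM (ΔEP). Its log2 fold change was -0.20 ± 0.18 (SE; edgeR adjusted p = 0.433) in fl/fl and -0.01 ± 0.23 (adjusted p = 0.986) in ΔEP mice. The highest values in the series, 1056 and 1294 CPM, were in mock fl/fl replicates 2 and 3, whereas mock replicate 1 had 524 CPM (fl/fl) and 514 CPM (ΔEP).

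Mdm2 (chr10:117688875-117710758, minus strand), the ubiquitin ligase for p53, was raised in every tumor. Its level was 57.1, 64.9 and 89.1 CPM in treated fl/fl skin and 240, 223 and 292 CPM in fl/fl tumors. In ΔEP mice it was 115, 113 and 58.6 CPM in treated skin and 231, 526 and 551 CPM in tumors. Each tumor library was thus above each treated library, and ΔEP tumor replicate 1 was at the level of the fl/fl tumors. The log2 fold change was 1.81 ± 0.24 (SE, 3.50-fold; edgeR adjusted p = 0.00305) in fl/fl and 2.08 ± 0.38 (4.22-fold; adjusted p = 0.00423) in ΔEP mice. Both calls held with any 1 library left out, with log2 fold changes of 1.67 to 2.03 and 1.84 to 2.42.

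Cdkn1a (chr17:29090976-29100727, plus strand), which encodes p21, the CDK inhibitor best known as a p53 target, behaved similarly. Treated fl/fl libraries held 60.5, 69.7 and 74.3 CPM and fl/fl tumors 223, 290 and 315 CPM. Treated ΔEP libraries held 67.2, 74.9 and 99.4 CPM and ΔEP tumors 218, 382 and 485 CPM. No tumor overlapped treated skin, and ΔEP tumor replicate 1 was again the lowest of its group. The log2 fold change was 1.99 ± 0.21 (SE, 3.98-fold; edgeR adjusted p = 0.00169) in fl/fl and 2.07 ± 0.29 (4.20-fold; adjusted p = 0.00156) in ΔEP mice, and it was called with any 1 library left out. Mock skin lay in between for most libraries, at 82.1, 132 and 135 CPM (fl/fl) and 93.9 and 207 CPM (ΔEP).

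Cdkn1b (chr6:134920401-134925513, plus strand), which encodes p27, the inhibitor of cyclin E and CDK2 in resting cells, went the other way. It stood at 105, 108 and 121 CPM in treated fl/fl skin and at 32.0, 39.7 and 38.9 CPM in fl/fl tumors. ΔEP mice had 121, 92.9 and 96.7 CPM in treated skin and 55.3, 40.3 and 55.7 CPM in tumors. Tumors of both genotypes lay below every mock and treated library. Its log2 fold change was -1.61 ± 0.18 (SE; edgeR adjusted p = 0.00193) in fl/fl and -1.13 ± 0.20 (adjusted p = 0.00374) in ΔEP mice. In ΔEP mice the fold change came below 2 without treated replicate 1 (log2 -0.99, adjusted p = 0.00747) or without tumor replicate 2 (log2 -0.96, adjusted p = 0.0183). The difference between genotypes in this change was 0.50 ± 0.27 on the log2 scale (SE; adjusted p = 0.446).

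Cdkn1c (chr7:143458339-143461050, minus strand), the imprinted gene for p57, was near the limit of detection. It had 1 to 35 counts in any library and 0.379 to 4.56 CPM. Every group mean was at or below 3.37 CPM, and the groups of all 9 comparisons overlapped. It did not pass the low-count filter in the comparisons of fl/fl tumors and was not called in any other comparison. Its exons share 625 bases with the antisense gene Gm44732, and how the counting used strand is not stated in the sources used here, so reads of the pair cannot be told apart.

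**Figure D3:**
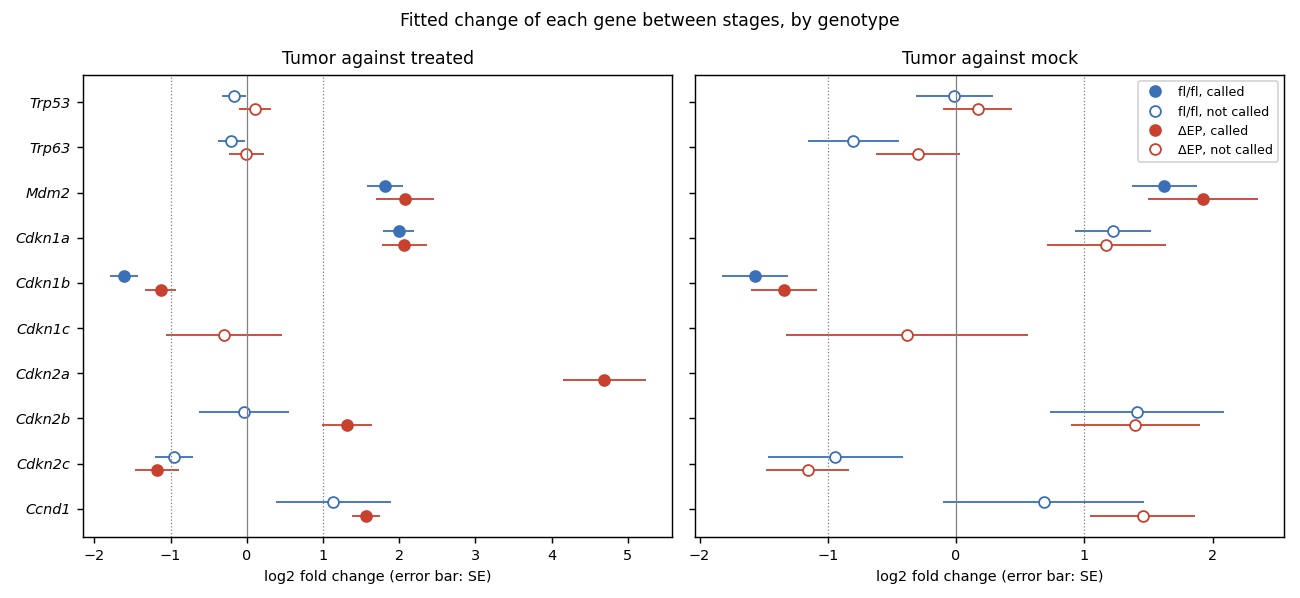
Fitted log2 fold changes of the members in tumors against treated skin (left) and mock skin (right), with SE bars, fl/fl in blue and ΔEP in red; filled dots were called and dotted lines mark a 2-fold change. Mdm2 and Cdkn1b were called in both panels and both genotypes. Genes without a dot did not pass the low-count filter, and Cdkn2a is left out of the right panel because mock cells had at most 1 count per library.

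Cdkn2a (chr4:89274471-89294653, minus strand), the INK4A and ARF gene, was almost silent outside tumors. Mock libraries held 1, 1 and 0 counts (fl/fl) and 1 and 0 counts (ΔEP), and treated libraries held 7, 1 and 2 counts (fl/fl) and 8, 6 and 2 counts (ΔEP). ΔEP tumors held 54, 131 and 189 counts, or 12.04, 23.7 and 35.8 CPM. Among fl/fl tumors, replicate 1 had 68 counts (34.0 CPM), while replicates 2 and 3 had 11 and 12 counts (1.67 and 3.92 CPM). All tumors were above all treated and mock libraries, and fl/fl tumor replicate 1 was in the range of the ΔEP tumors. The log2 fold change of tumors over treated skin in ΔEP mice was 4.69 ± 0.54 (SE, 25.8-fold; edgeR adjusted p = 0.000736), called with any 1 library left out. In fl/fl mice the gene did not pass the filter, and where a single fit of all libraries tested it, its adjusted p was 0.00702. EdgeR fits without any 1 treated fl/fl library also tested it and did not call it (adjusted p = 0.0906 to 0.107). Those without tumor replicate 2 (adjusted p = 0.019) and with no low-count filter (adjusted p = 1.67e-09) called it. In fl/fl mice the ratio of pooled levels, tumor over treated skin, was 16.8, with an exact 95% interval of 8.74 to 36.2 that covers counting error only. Of the 91 tumor counts behind it, 68 were from replicate 1, and without that library the ratio was 5.13 (2.35 to 12.1). Against mock skin, with 2 counts in fl/fl and 1 count in ΔEP mice, the pooled ratios were 95.9 (25.8 to 804) and 159 (28.3 to 6284), and the fl/fl ratio was 29.3 (7.24 to 256) without tumor replicate 1.

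Cdkn2b (chr4:89306299-89311039, minus strand), the neighboring gene for p15, was high in largely the same tumor libraries. Its level was 22.0 CPM in fl/fl tumor replicate 1 and 5.63 and 3.59 CPM in replicates 2 and 3, and 10.3, 20.4 and 25.8 CPM in the ΔEP tumors. Treated skin held 8.66, 10.9 and 9.77 CPM (fl/fl) and 7.33, 5.85 and 8.09 CPM (ΔEP). ΔEP tumors were above treated ΔEP skin in every library, whereas fl/fl tumors lay on both sides of theirs. The log2 fold change was 1.31 ± 0.33 (SE; edgeR adjusted p = 0.0155) in ΔEP mice, and the call was lost without treated replicate 2 (1.21, adjusted p = 0.0635), without tumor replicate 3 (1.06, adjusted p = 0.0725) and in a single fit of all libraries (adjusted p = 0.0543). The fl/fl value was -0.04 ± 0.59 (adjusted p = 0.970), and without fl/fl tumor replicate 1 it was -1.04 (adjusted p = 0.0259), a call in the lower direction.

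Cdkn2c (chr4:109660876-109667189, minus strand), which encodes p18, was lower in tumors. Treated skin held 17.2, 14.4 and 13.3 CPM (fl/fl) and 23.6, 13.01 and 15.2 CPM (ΔEP). Tumors held 8.50, 7.76 and 7.51 CPM (fl/fl) and 9.14, 7.42 and 7.76 CPM (ΔEP). No tumor overlapped treated skin. In ΔEP mice the log2 fold change was -1.18 ± 0.28 (SE; edgeR adjusted p = 0.0126). That call was lost without treated replicate 1 (-0.88, adjusted p = 0.0304), without tumor replicate 3 (-1.12, adjusted p = 0.0556) and in the single fit (adjusted p = 0.0536). The fl/fl value was -0.95 ± 0.25 (adjusted p = 0.028), just under the 2-fold limit.

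Ccnd1 (chr7:144929931-144939925, minus strand), the gene for cyclin D1, was high in 4 of 6 tumors. ΔEP tumors held 341, 311 and 298 CPM. The fl/fl tumors held 364, 43.1 and 55.5 CPM, with the high value in replicate 1. Treated skin held 88.1, 66.7 and 47.4 CPM (fl/fl) and 117, 92.5 and 90.3 CPM (ΔEP). All ΔEP tumors were thus above treated skin, whereas fl/fl tumor replicates 2 and 3 were within or just under its range. The log2 fold change was 1.57 ± 0.18 (SE, 2.97-fold; edgeR adjusted p = 0.000769) in ΔEP mice, held with any 1 library left out and was not called in the single fit (adjusted p = 0.0606). The fl/fl value was 1.14 ± 0.75 (adjusted p = 0.293), and -0.48 (adjusted p = 0.181) without replicate 1 of the tumors. The Ccnd1 exons share 1100 bases with Oraov1, a gene on the opposite strand, whose level was 136, 19.8 and 25.5 CPM in fl/fl tumors and 98.5 to 109 CPM in ΔEP tumors. Without a stated use of strand, the reads of these genes cannot be told apart where they overlap, although Ccnd1 had the larger counts in every library.

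A further question was whether loss of Zfp36 changed the members within a stage. By the test as fitted it did not produce a call. Of 9 members tested in mock skin, 0 were called, with 0 at an unadjusted p under 0.05, and edgeR called 0% of 15920 genes. Of 9 tested in treated skin, 0 were called, 1 had an unadjusted p under 0.05, and 0.00616% of 16232 genes were called. Of 9 tested in tumors, 0 were called, 0 had an unadjusted p under 0.05, and 0.0284% of 14067 genes were called. The study, which used edgeR at an FDR under 0.05, reported many more genes between these tumor groups. The cause of that difference was not tested. DESeq2 called 0 members in each of the 3 stages, while over all genes it called 3 in mock skin (0.0188%), 36 in treated skin (0.222%) and 368 in tumors (2.62%). The log2 differences ran from -0.45 (Trp63) to 0.87 (Cdkn2b) in mock skin, from -0.48 (Cdkn2b) to 0.55 (Ccnd1) in treated skin and from -0.10 (Cdkn2c) to 0.94 (Ccnd1) in tumors. The member under 0.05 in treated skin was Ccnd1, at 0.55 ± 0.24 on the log2 scale (SE; edgeR adjusted p = 0.897). In tumors 2 of 9 members, Trp53 and Cdkn1b, had all their ΔEP values above the highest fl/fl value, while 17.9% of 14067 genes did not overlap in either direction. Trp53 differed by 0.29 ± 0.18 (SE, log2; adjusted p = 0.494) and Cdkn1b by 0.31 ± 0.22 (adjusted p = 0.555).

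The genotype comparison of tumors depended on 1 library and on the low-count filter. With every tumor library and no filter, edgeR called Ccnd1 (log2 1.13, adjusted p = 0.00104) and Cdkn2a (1.07, adjusted p = 0.0457) higher in ΔEP tumors. The SEs of that fit were 0.27 and 0.35, against 0.71 and 0.93 with the filter, while the tumor groups overlapped in both genes. The share of all genes called in that fit is not given here. Leaving out fl/fl tumor replicate 1 kept only replicates 2 and 3 in that group. Without it, edgeR called 3 members of 10 tested, all higher in ΔEP tumors, and 16.9% of 15463 genes. The library left out held the highest fl/fl tumor value of each of these 3 members. Ccnd1 then differed by 2.58 ± 0.21 on the log2 scale (SE; adjusted p = 5.7e-05), against 0.94 ± 0.71 (adjusted p = 0.58) with the library. Cdkn2a differed by 3.11 ± 0.54 (adjusted p = 0.0032), against 0.87 ± 0.93 (adjusted p = 0.712). Cdkn2b differed by 1.86 ± 0.42 (adjusted p = 0.0111), against 0.82 ± 0.63 (adjusted p = 0.583). In the test of whether the change from treated skin to tumor differed by genotype, leaving the library out called 2 members, Ccnd1 (2.07 ± 0.33, adjusted p = 0.00418) and Cdkn2b (2.39 ± 0.49, adjusted p = 0.0131), and 7.53% of 17951 genes. Zfp36 in this library was 230 CPM, between the 176 and 241 CPM of the other fl/fl tumors. Mdm2, Cdkn1a, Cdkn1b and Cdkn2c did not set it apart: its values of 240, 223, 32.0 and 8.50 CPM lay within 1.5 times those of the other fl/fl tumors.

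**Figure D4:**
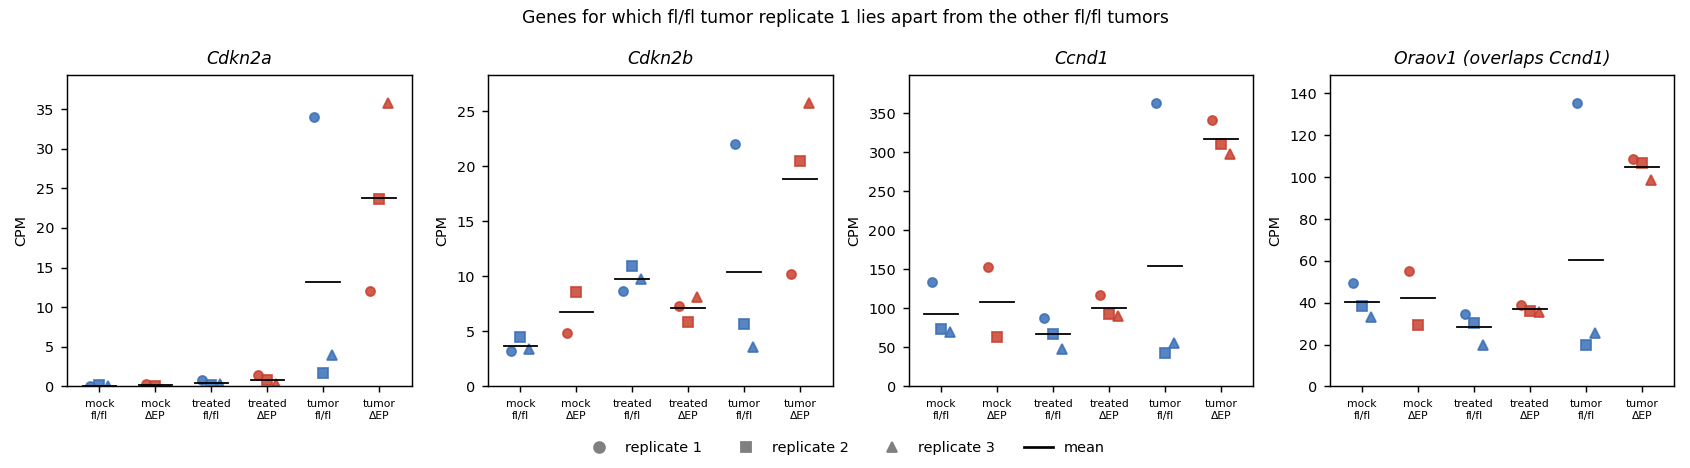
CPM of Cdkn2a, Cdkn2b, Ccnd1 and of Oraov1, which overlaps Ccnd1 on the other strand, in each library, with replicates by symbol and means as bars. Replicate 1 of the fl/fl tumors (blue circle) was at 34.0, 22.0, 364 and 136 CPM, near or above the ΔEP tumors. Replicates 2 and 3 were below every ΔEP tumor.

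The next contrast set treated skin, which lay beside papillomas, against mock skin. Against mock skin, 0 of 9 members tested were called in treated fl/fl cells, where 0% of 16601 genes were called, and 0 of 9 in treated ΔEP cells, where 0% of 15891 genes were called. In fl/fl cells 2 members had an unadjusted p under 0.05 in edgeR and DESeq2 called 1 member, and in ΔEP cells both counts were 0. Over all genes, 913 had an unadjusted p under 0.05 and DESeq2 called 118 (0.711%) in fl/fl cells, against 763 and 61 (0.384%) in ΔEP cells. The members were Cdkn2b, at 3.21, 4.50 and 3.37 CPM in mock and 8.66, 10.9 and 9.77 CPM in treated fl/fl skin (log2 1.42 ± 0.26 SE; edgeR adjusted p = 0.352), and Cdkn1a (log2 -0.75 ± 0.23; adjusted p = 0.766). DESeq2 called Cdkn2b, and so did edgeR without mock fl/fl replicate 1 (log2 1.36), when 15.1% of 17103 genes were called. The other members tested in fl/fl cells lay between -0.58 (Trp63) and 0.51 (Cdkn1c) on the log2 scale. In ΔEP cells the log2 fold change of Cdkn2b was 0.07 ± 0.41 (adjusted p = 0.9999), the highest of the members there, and that of Cdkn1a was the lowest at -0.91 ± 0.39. For Cdkn2b the difference between genotypes in this change was -1.35 ± 0.42 (edgeR adjusted p = 1). Cdkn2b was the 1 member of 9 tested with an unadjusted p under 0.05 there, with 0 called, and edgeR and DESeq2 alike called 0% of 17694 genes.

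Tumors against mock skin gave the same directions for the members called, and this contrast shares its tumor libraries with that against treated skin. In fl/fl mice 2 of 8 members tested were called (4.11% of 15394 genes), and in ΔEP mice 3 of 10 (14.3% of 15027 genes). Mdm2 rose by 1.62 ± 0.26 on the log2 scale (SE; edgeR adjusted p = 0.0226) in fl/fl and by 1.92 ± 0.43 (adjusted p = 0.0338) in ΔEP mice, from 91.4, 71.7 and 76.7 CPM and from 119 and 95.9 CPM in mock skin. Cdkn1b had log2 fold changes of -1.57 ± 0.26 (adjusted p = 0.0253) and -1.34 ± 0.26 (adjusted p = 0.0236), from 123, 90.6 and 107 CPM and from 125 and 115 CPM in mock skin. Cdkn2a was the third call in ΔEP mice (adjusted p = 0.0107), and its size is best read from the counts above. Cdkn1a had log2 values of 1.22 ± 0.29 (adjusted p = 0.0589) and 1.17 ± 0.47 (adjusted p = 0.128), not called, with every tumor above every mock library of its genotype. Ccnd1 had log2 values of 0.68 ± 0.78 (adjusted p = 0.615) and 1.45 ± 0.41 (adjusted p = 0.0579), and Cdkn2c had -0.94 ± 0.53 (adjusted p = 0.301) and -1.16 ± 0.32 (adjusted p = 0.0565). DESeq2 called both of these in ΔEP mice, along with 18.7% of genes. Cdkn2b had 1.41 ± 0.68 (adjusted p = 0.231) and 1.40 ± 0.50 (adjusted p = 0.103). The values of Trp53 were -0.01 and 0.17, those of Trp63 -0.80 and -0.30, and that of Cdkn1c, tested in ΔEP mice alone, -0.38. The test of a difference between genotypes in these changes gave 0 of 10 members called, 0 at an unadjusted p under 0.05, 0 by DESeq2, and 0% of 17388 genes called by edgeR and 0.161% by DESeq2.

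These calls depended on single libraries. In fl/fl mice Mdm2 and Cdkn1b were not called without mock replicate 2 or 3 or without tumor replicate 2 or 3, with log2 fold changes of 1.51 to 1.76 and -1.70 to -1.43 over all such fits and adjusted p up to 0.122 and 0.131. Without mock fl/fl replicate 1, on the other hand, 5 of 9 members were called and 21% of 15636 genes, the added members being Trp63 (log2 -1.08), Cdkn1a (1.04) and Cdkn2a. In ΔEP mice the Mdm2 call was lost without tumor replicate 2 (1.75) or 3 (1.71), that of Cdkn1b without any 1 tumor library (-1.42 to -1.21 over all such fits), and that of Cdkn2a without tumor replicate 2 (adjusted p = 0.0619). Leaving out mock ΔEP replicate 2 kept only replicate 1 in that group, the library that stood apart. The log2 fold changes were then 1.86 for Mdm2 and -1.31 for Cdkn1b, and calls from a group of 1 library are not counted.

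Genes linked to the members by function were counted from lists, without a test of the lists. Of 28 p53 target genes tested in tumors against treated skin, 6 rose and 3 fell in fl/fl mice (median log2 fold change 0.26, against -0.02 over all genes), and 9 rose and 3 fell in ΔEP mice (median 0.65, against -0.03). In these contrasts 18% and 26% of all genes tested were called, the background for this and the lists that follow. Ccng1, the cyclin G1 gene, rose by 1.76 ± 0.31 (SE, log2; edgeR adjusted p = 0.00784) in fl/fl and by 2.42 ± 0.19 (adjusted p = 0.000181) in ΔEP mice. Sfn, which encodes the 14-3-3 protein of stratified epithelia, rose by 1.45 ± 0.23 (adjusted p = 0.00559) and 1.83 ± 0.24 (adjusted p = 0.00127). Plk2, a kinase gene, rose by 1.13 ± 0.18 (adjusted p = 0.00589) in fl/fl mice. Tnfrsf10b, a death receptor gene, and Polk, a translesion polymerase gene, rose in ΔEP mice by 2.49 ± 0.25 (adjusted p = 0.000437) and 2.25 ± 0.26 (adjusted p = 0.000736). Others went down. Btg2, an antiproliferative gene, changed by -2.05 ± 0.24 (adjusted p = 0.0024) in fl/fl and by -1.46 ± 0.30 (adjusted p = 0.00673) in ΔEP mice, and Sesn1, a stress-response gene, by -1.49 ± 0.25 (adjusted p = 0.00642) and -1.34 ± 0.26 (adjusted p = 0.00545). Trp53inp1 changed by -1.85 ± 0.22 (adjusted p = 0.00235) in fl/fl mice and Psrc1 by -1.20 ± 0.28 (adjusted p = 0.0116) in ΔEP mice. Against mock skin 1 of 28 rose in fl/fl mice (Plk2), while 9 rose and 1 fell in ΔEP mice, beside 4.11% and 14.3% of all genes called.

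Upstream of p53, 13 relatives and regulators were tested. In tumors against treated skin, 0 were called in fl/fl mice (18% of all genes) and 1 fell in ΔEP mice (26%), and the list itself was not tested. That gene was Mdm4, an inhibitor of p53 related to Mdm2, at -1.28 ± 0.18 on the log2 scale (SE; edgeR adjusted p = 0.00171) in ΔEP tumors against treated skin and -1.46 ± 0.27 (adjusted p = 0.0211) against mock skin. In fl/fl mice the smallest p belonged to Trp53bp1, a DNA damage mediator, at -0.55 ± 0.17 (adjusted p = 0.0452), short of a 2-fold change. Trp73, the third gene of the p53 family, had group means from 12.1 to 17.6 CPM with wide spread.

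Among 19 p63 target genes, which share Perp and Sfn with the p53 list, 2 rose and 4 fell in fl/fl tumors against treated skin (median log2 fold change 0.48), and 9 rose and 0 fell in ΔEP tumors (median 0.55). The integrin genes led. Itga3 rose by 3.04 ± 0.22 (SE, log2; edgeR adjusted p = 0.000173) and Itgb4 by 3.05 ± 0.39 (adjusted p = 0.00109) in ΔEP mice, and Itga6 by 1.76 ± 0.38 (adjusted p = 0.016) in fl/fl mice. Fgfr2 (-1.09 ± 0.18, adjusted p = 0.00632), Zfp750, an epidermal differentiation factor (-1.03 ± 0.21, adjusted p = 0.0124), and Dst (-1.27 ± 0.37, adjusted p = 0.0395) were among those that fell in fl/fl mice.

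Of 13 genes of cyclin D and E complexes, 0 rose and 3 fell in tumors against treated skin in each genotype (medians -0.16 in fl/fl and -0.13 in ΔEP mice), a share near the 18% and 26% of all genes. Ccnd2, the gene for cyclin D2, changed by -1.17 ± 0.21 (SE, log2; edgeR adjusted p = 0.00795) in fl/fl and by -1.79 ± 0.27 (adjusted p = 0.0021) in ΔEP mice, from group means of 625 and 640 CPM in treated skin to 284 and 199 CPM in tumors. Cdc25a, a phosphatase that activates CDK2, changed by -1.04 ± 0.24 (adjusted p = 0.0199) and -1.003 ± 0.28 (adjusted p = 0.0218). Cdkn2d, the fourth INK4 gene, changed by -1.33 ± 0.40 (adjusted p = 0.0448) in fl/fl mice, and Skp2, part of the ligase that degrades p27, by -1.37 ± 0.29 (adjusted p = 0.00703) in ΔEP mice.

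Downstream of the CDKs, 13 RB and E2F genes were tested in tumors against treated skin. In fl/fl mice 0 rose and 1 fell (median -0.15), and in ΔEP mice 2 rose and 1 fell (median -0.04). The gene that fell was E2f2, an activating E2F, which changed by -3.04 ± 0.40 (SE, log2; edgeR adjusted p = 0.00309) in fl/fl and by -2.98 ± 0.46 (adjusted p = 0.00211) in ΔEP tumors against treated skin. The repressor genes E2f7 and E2f8 rose in ΔEP mice by 1.64 ± 0.20 (adjusted p = 0.000905) and 1.05 ± 0.25 (adjusted p = 0.0117). Of 17 S and M phase genes, 0 were called in tumors against treated skin in either genotype, with medians of -0.23 in fl/fl and 0.12 in ΔEP mice. The smallest p were those of Aurkb in fl/fl (-0.90 ± 0.44, adjusted p = 0.159) and Cdc20 in ΔEP mice (0.78 ± 0.23, adjusted p = 0.0288, under 2-fold).

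The list of polycomb repressors of the Ink4 locus also held the demethylase genes Kdm6b and Jmjd1c. Of 10 genes tested, 2 rose and 2 fell in fl/fl tumors against treated skin, and 0 rose and 1 fell in ΔEP tumors. Cbx8, a polycomb subunit, changed by -1.65 ± 0.34 (SE, log2; edgeR adjusted p = 0.0143) in fl/fl and by -1.41 ± 0.36 (adjusted p = 0.017) in ΔEP mice. Cbx7 changed by -2.08 ± 0.42 (adjusted p = 0.0131) in fl/fl mice, where the demethylase genes Kdm6b and Jmjd1c rose by 1.07 ± 0.31 (adjusted p = 0.0415) and 1.67 ± 0.46 (adjusted p = 0.0331).

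**Figure D5:**
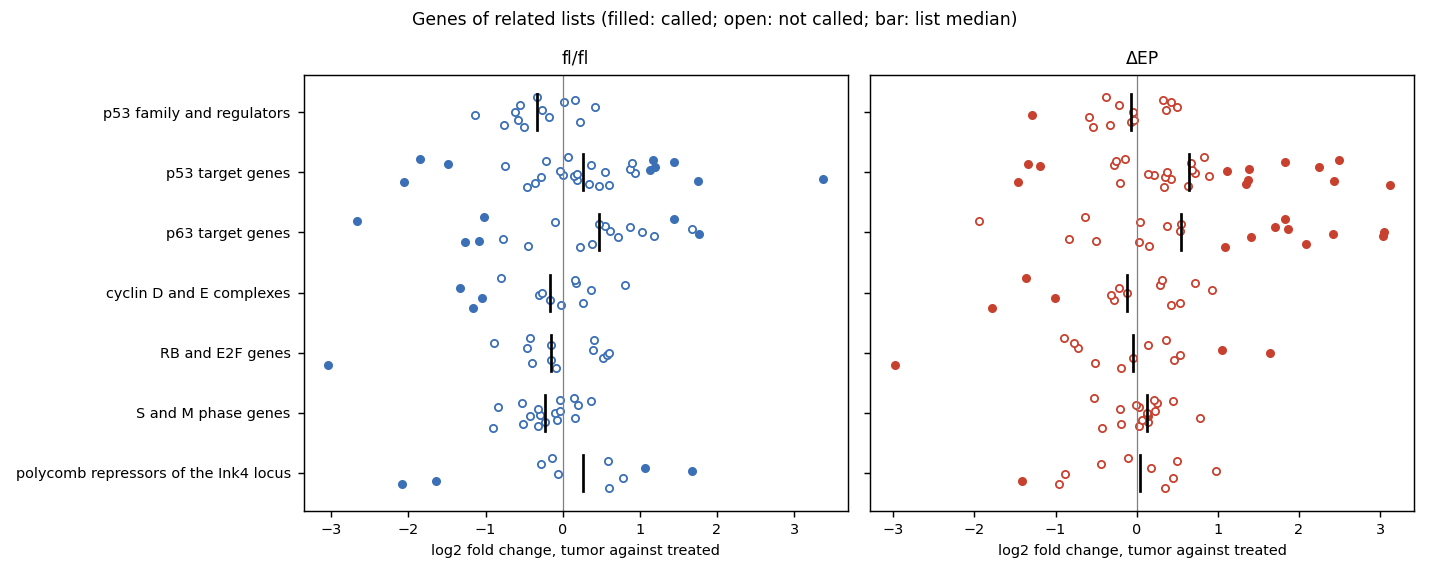
Log2 fold change of tumors against treated skin for each tested gene of 7 lists, fl/fl left and ΔEP right, with filled dots for genes called, open dots for the others and a bar at the list median. Both directions occurred among p53 targets, and no S or M phase gene was called in either genotype.

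Across the 17 libraries, the 2 genes most like each member were found by Pearson's r of log2 CPM among 18252 genes. These values are descriptive, since all genes share the 6 groups. Mdm2 was nearest to the chemokine genes Cxcl1 (r = 0.970) and Cxcl2 (0.969), and Cdkn1a to Tiparp (0.982) and Rap1b (0.976). Cdkn1b was nearest to Casp2 (0.964) and Cbx2 (0.956), Cdkn2a to Prkg2 (0.984) and Rasa4 (0.972), and Cdkn2b to Ces2e (0.885) and Srgn (0.867). Ccnd1 came closest to its overlapping gene Oraov1 (0.989) and then to Slc7a1 (0.938), and Cdkn1c to its antisense Gm44732 (0.972) and then to Fam19a5 (0.825). Trp53 was nearest to Chpf (0.936) and Dut (0.925), Trp63 to Clstn1 (0.936) and Arhgef12 (0.936), and Cdkn2c to Gm44359 (0.935) and Hist1h2be (0.932).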

How the data were processed

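RNA-Seq libraries of sorted epidermal cells (Ovation SoLo kit) were deposited by the authors as 1 table of raw read counts per gene, with 18 columns. The submitters' notes name Trimmomatic 0.36, STAR 2.5.3, HTSeq 0.9.1, DESeq2 and the mm10 build without roles, the deposited table is named after featureCounts, and the study's methods name edgeR. Use of strand and removal of duplicates are not given in the sources used here, so precision from counts covers counting error only. Nothing states that replicates came from separate mice, so p-values measure the spread between these libraries, which may be technical.

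Total counts ran from 2808550 to 9617985 (median 5567614). In edgeR 4.0.16 (R 4.3.3, limma 3.58.1), each comparison used the libraries of its groups alone, filterByExpr defaults, TMM scaling and the two-sided quasi-likelihood F test with Benjamini-Hochberg adjustment over all genes tested. Calls needed both a more than 2-fold change and an adjusted p below 0.05. There were 9 pairwise comparisons and 3 interactions. The procedure was tested on simulated data. CPM used TMM-scaled library sizes, and log2 CPM a prior count of 2. Motifs were read from GENCODE GRCm38 transcripts and from RefSeq promoter windows. Alternatives were DESeq2 1.42.0, RLE scaling, no filter, a single fit, the replicate number as a block, the identical columns counted as 2 libraries, a term for mock replicate 1 and each library left out. A fit without both fl/fl libraries that stand apart, and Cdkn2a ratios without fl/fl tumor replicate 1, were chosen after seeing the data.

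All 10 members were eligible in every comparison, and not all their values are printed singly. From each list the genes with the smallest p among calls were eligible, at most 3 in each direction, or, with no call, at most 2, and not all of these are printed. Members and lists were chosen with earlier results of these data known.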

Additional observations from a re-analysis of the deposited data

How the results depend on the processing

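Of 1397 refits of single members, 1339 kept the side of the threshold and the direction, or stayed uncalled, 31 became calls and 27 lost theirs, and no called member changed sign. RLE scaling moved the median log2 fold change of all genes by at most 0.0353. In the numbers of members called, tumor against mock in fl/fl mice had 2 calls, 4 with no filter, 4 in the single fit, 4 without both libraries that stand apart and 0 with the replicate block, and 0 to 5 with 1 library left out. The same contrast in ΔEP mice had 3 calls, 5 with DESeq2 and 6 with no filter. It had 5 with the identical columns counted as 2 libraries and 1 with the replicate block. With 1 library left out it had as few as 0. Fits without a mock ΔEP library left 1 library in that group, and their calls are not counted here. Tumor against treated had 3 calls in fl/fl mice, 5 with no filter and 3 to 4 with 1 library left out, and 7 calls in ΔEP mice, 4 in the single fit and 5 to 7 with 1 library left out. Genotype in tumors had 0 calls, 2 with no filter and 0 to 3 with 1 library left out. Treated against mock in fl/fl mice had 0 calls, 1 with DESeq2 and 0 to 1 with 1 library left out, and the interaction of tumor against treated had 0 calls and 0 to 2. Calls over all genes moved as well. With 1 library left out they ran from 30 to 3277 for tumor against mock in fl/fl mice. For tumor against treated they ran from 1106 to 4138 (fl/fl) and from 2823 to 4773 (ΔEP). They were 0 to 2613 for genotype in tumors, 0 to 2587 for treated against mock in fl/fl mice and 0 to 1352 for that interaction. The cause of these shifts was not tested. The replicate block, which pairs equal replicate numbers, moved no other count by more than 1.5 times. With the block in tumor against mock, Mdm2 was 1.62 (edgeR adjusted p = 0.0549) in fl/fl and 1.62 (0.106) in ΔEP mice, Cdkn1b was -1.56 (0.0668) and -1.43 (0.0712), none of these was called, and Cdkn2a was the call in ΔEP mice. No comparison with 3 pairs had all correlations of same-numbered deviations over 0.1. With 2 pairs they were 0.782 and 0.569 for genotype in mock skin, where both replicates 1 stand apart, 0.569 and 0.141 for treated and 0.0943 and 0.124 for tumor against mock in ΔEP mice. As no label ties the numbers to a mouse or day, they were not taken to pair the libraries. With a prior count of 0.5, the r of Cdkn2a with Prkg2 was 0.966. Members with few counts, Cdkn1c throughout and Cdkn2a outside tumors, are limited by depth.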
